A study of Mus musculus with 23 samples.

Results

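The genes described here are the mouse Spata genes, named spermatogenesis associated genes for their expression in the testis. Members were chosen by symbol alone: every gene whose RefSeq symbol is Spata followed by a digit, without pseudogenes, which gave 30 genes. Of these, 29 have a row among the 27466 genes of the count table, and Spata5l1 was not analysed here. The symbol is a catalogue name, not a family: the members belong to different protein families, and those with known roles act in the meiotic nucleus, the acrosome, the sperm tail, the mitochondria, the cytoplasm or the cilium. The measurements are RNA sequencing of wild-type CD-1 mouse testes, and of CD-1 testis explants in organotypic culture, in a series that followed the first wave of spermatogenesis. In vivo groups were testes at 6.5 days postpartum (dpp; 1 fresh library and 3 of tissue thawed after controlled slow freezing, CSF), 10.5 dpp (3 libraries), 22.5 dpp (3) and 36.5 dpp (2). Culture groups were explants of 6.5 dpp testes kept for 4 days (D4, 3 libraries), 16 days (D16, 2) or 30 days (D30, 3 from fresh tissue and 1 from CSF tissue), so that D4 matches 10.5 dpp in age, D16 matches 22.5 dpp and D30 matches 36.5 dpp. The explants grew in α-MEM with KnockOut serum replacement, gentamicin and retinol, were pooled, and had their necrotic centre cut away before RNA extraction.

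In the first wave, spermatogonia enter meiosis, become spermatocytes, pass through pachytene, and divide into round spermatids, which then elongate, build the acrosome, condense the nucleus and assemble the tail. Many genes needed only in spermatids are transcribed from promoters that are silent in other cells, and some are switched on in pachytene spermatocytes well before the protein is used. Spata genes of the broadly expressed kind (Spata2, Spata2l, Spata5, Spata7 and Spata13) carry the name although somatic cells use them too.

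The 21 libraries used held 28351546 to 69029328 counts, and levels are given as CPM, counts scaled to a common library total. A gene with at most 3 counts in every library of a group was taken as at the floor of detection, and no fitted fold change is quoted against such a group. Replicates are separate samples by their labels. The p-values set each difference against a spread between replicates that was estimated for each gene over all 7 groups, not from the compared groups alone. A fresh 6.5 dpp column repeated another in every gene and was counted once. Another fresh 6.5 dpp library (replicate 1) was left out: in it 25 of 29 members lay above the other 4 libraries of that age, and 20 lay within the range of the 22.5 dpp libraries. Spata16, for instance, had 177.5 CPM there against at most 0.494 CPM in the others. In 3 used libraries the members also ran low. The second D16 library had the lower value of the pair for 27 of 29 members. The second 22.5 dpp library was the lowest of 3 for 25, and the third fresh D30 library was the lowest of 4 for 20. Shares of all genes are not given for these counts by library, so whether they are particular to the members is not shown.

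The promoters of 4 members are shown because they hold letters that are known from spermatid and pachytene transcription: the cAMP response element bound by CREM, the MYB core bound by A-MYB and the X-box bound by RFX factors. Each stretch, from RefSeq GRCm38.p6, runs from 150 bases before the transcript start to 20 bases after it, 5′ to 3′ on the gene's own strand, with the match each is shown for in capitals. The capitals in Spata18 (chr5:73651230-73651399, plus strand) and in Spata32 (chr11:103218413-103218582, minus strand) mark CGTCA, the shorter site TGACG read on the other strand. Those in Spata7 (chr12:98627992-98628161, plus strand) mark the whole element TGACGTCA, and a MYB core farther upstream in the same stretch is left in lower case. Those in Spata4 (chr8:54600631-54600800, plus strand) mark a MYB core (CAACNG, here as its reverse complement) that overlaps an X-box core (GTTGCC).
Spata18: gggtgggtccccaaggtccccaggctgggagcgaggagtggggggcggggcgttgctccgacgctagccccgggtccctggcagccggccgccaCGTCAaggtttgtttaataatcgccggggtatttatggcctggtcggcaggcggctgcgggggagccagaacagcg
Spata32: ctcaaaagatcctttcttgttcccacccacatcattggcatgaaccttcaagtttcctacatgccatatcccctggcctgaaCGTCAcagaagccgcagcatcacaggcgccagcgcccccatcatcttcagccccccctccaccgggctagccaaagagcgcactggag
Spata7: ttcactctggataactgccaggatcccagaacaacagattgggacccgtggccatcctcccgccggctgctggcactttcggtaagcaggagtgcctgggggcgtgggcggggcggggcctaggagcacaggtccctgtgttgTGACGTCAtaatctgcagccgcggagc
Spata4: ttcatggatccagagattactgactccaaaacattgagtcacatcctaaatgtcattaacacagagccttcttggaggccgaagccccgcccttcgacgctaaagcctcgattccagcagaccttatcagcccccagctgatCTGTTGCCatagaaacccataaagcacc
Promoter windows of 300 bases were found for 28 of the 30 genes, 35 windows in all. On either strand, TGACG stood in 11 of the 35 windows (31.4%) and in 20.8% of all 32817 windows of that length. CAACNG stood in 14 of 35 (40%) and in 35% of all, GTTGCC in 4 of 35 (11.4%) and in 12.5% of all. The whole element TGACGTCA, which contains the shorter one, stood in 1 of 35 and in 1.79% of all. These are matches of letters, and none was tested for binding.

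In vivo, the Spata genes were mostly low until 10.5 dpp, and most of them rose to 22.5 dpp and again to 36.5 dpp. The summed level of the 29 members was 385 to 416 CPM at 6.5 dpp and 460 to 469 CPM at 10.5 dpp. It was 1586 to 2822 CPM at 22.5 dpp and 8598 to 9726 CPM at 36.5 dpp. Between 6.5 and 10.5 dpp no member passed the test (edgeR quasi-likelihood test, Benjamini-Hochberg adjusted p under 0.05 over 19255 genes, which 1.14% of all genes passed), none of the 29 had an unadjusted p under 0.05, and DESeq2 also called 0. Between 10.5 and 22.5 dpp, when spermatocytes reach pachytene and the first round spermatids form, 25 of 29 rose and none fell, where 33.6% of all genes tested rose and 27.9% fell. The members' median log2 fold change was 5.22 (4.52 with the 2 members that were at the floor at 10.5 dpp set at their lower bounds) against 0.06 over all genes. The 4 that did not pass were Spata2, Spata2l, Spata5 and Spata13. Between 22.5 and 36.5 dpp, when spermatids elongate, 22 rose and 3 fell, where 23.3% of all genes rose and 27.5% fell, with a median of 3.76 for the members and -0.13 for all genes. Those that fell were Spata2, Spata5 and Spata13. The fall of Spata5 did not pass with RLE factors (adjusted p = 0.0883) or without the second 36.5 dpp library (adjusted p = 0.0812). That of Spata13 did not pass with RLE factors (adjusted p = 0.0604), without the second 22.5 dpp library (adjusted p = 0.111) or without the first 36.5 dpp library (adjusted p = 0.269). Spata1, Spata4, Spata16 and Spata22 did not pass. In bulk tissue, fewer cells of a type and less RNA per cell cannot be told apart.

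**Figure D1:**
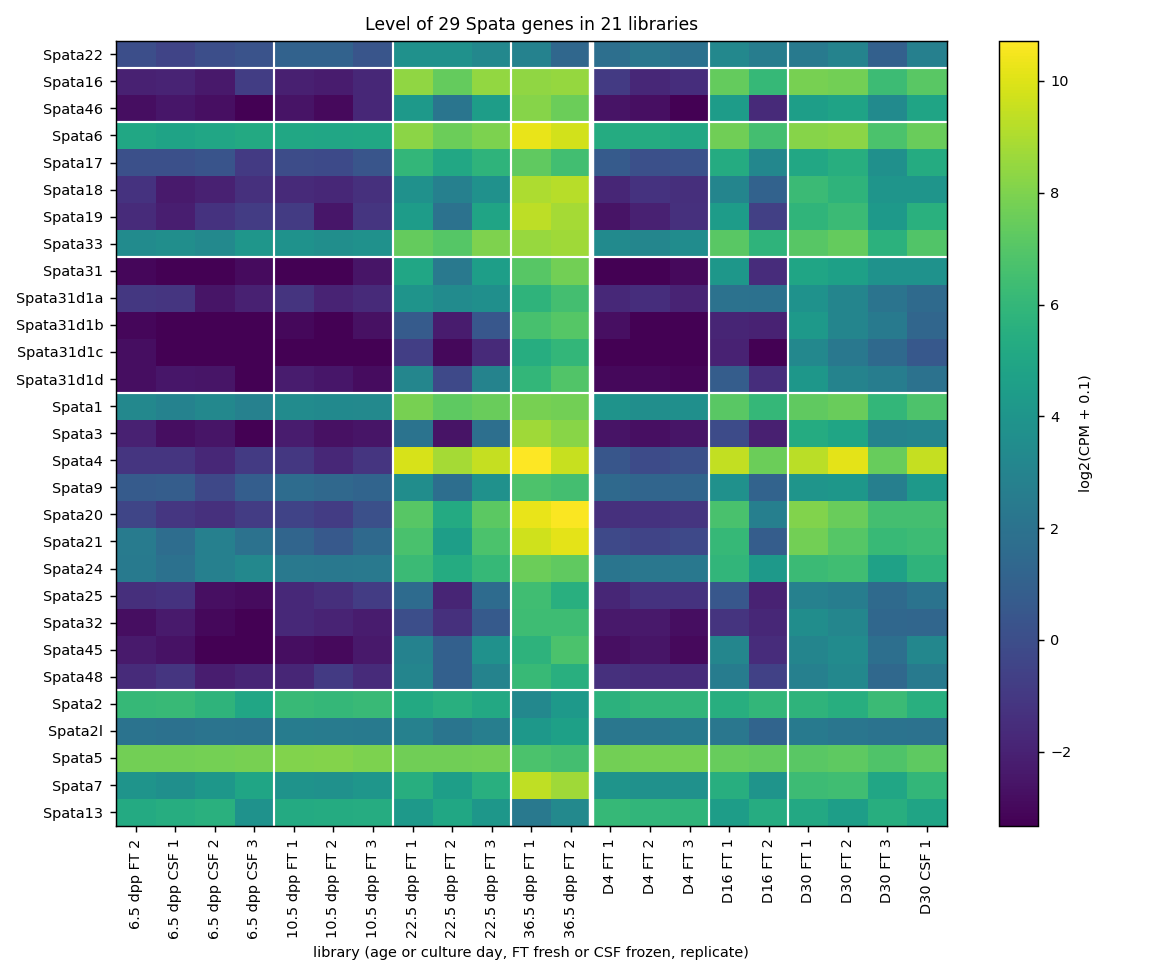
Level of each member (rows, grouped by role between the white lines) in each of the 21 libraries (columns, in vivo left of the thick line and culture right of it), as log2(CPM + 0.1). Most rows turn from dark to bright at 22.5 dpp and D16 and are brightest at 36.5 dpp, the second D16 column is darker than the first, and Spata2, Spata5 and Spata13 run the other way.

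Against age-matched testes, most Spata genes were lower in explants by D30, while at D4 none differed beyond the error and at D16 a few did. At D4 no member passed the test against 10.5 dpp (8.1% of all genes did), while 2 had an unadjusted p under 0.05 and DESeq2 called 1, Spata4. At D16 against 22.5 dpp, 4 members were lower and none higher, where 11.8% of all genes were lower and 14.0% higher. The members' median log2 fold change was -1.06, against -0.08 over all genes. At D30 against 36.5 dpp, 25 of 29 were lower and 2 higher, where 35.0% of all genes were lower and 32.4% higher, with a median of -3.68 for the members and -0.03 for all genes. Every D30 library lay below both 36.5 dpp libraries in CPM for 24 members, as was so for 25.2% of all genes. Spata2, Spata5 and Spata13 lay above in every library, as did 47.6% of all genes. With a stricter threshold (adjusted p at most 0.001 and a log2 fold change of 2 or more in size), 21 members were lower at D30 and none higher, where 7.73% of all genes were higher and 13.6% of all genes were lower.

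These folds are relative to TMM scaling, which sets the bulk of genes near 0. Scaling by library totals alone moved the median log2 fold change of all genes by 0.64 at D30 against 36.5 dpp, by 0.15 at D16 against 22.5 dpp, by -0.29 from 10.5 to 22.5 dpp and by -0.51 from 22.5 to 36.5 dpp. With it, the share of called genes that were higher went from 48.0% to 65.8% at D30, from 54.3% to 68.1% at D16, from 54.6% to 43.8% at 22.5 dpp and from 45.9% to 27.9% at 36.5 dpp. It went from 59.1% to 69.2% from 6.5 to 10.5 dpp, from 60.7% to 50.1% at D4 against 10.5 dpp, from 54.7% to 73.2% for the difference of early steps and from 57.1% to 82.1% for that of late steps, described after the single genes. Of the 29 members, Spata5 and Spata22 changed sign at D30 with it, and the other 27 kept theirs.

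**Figure D2:**
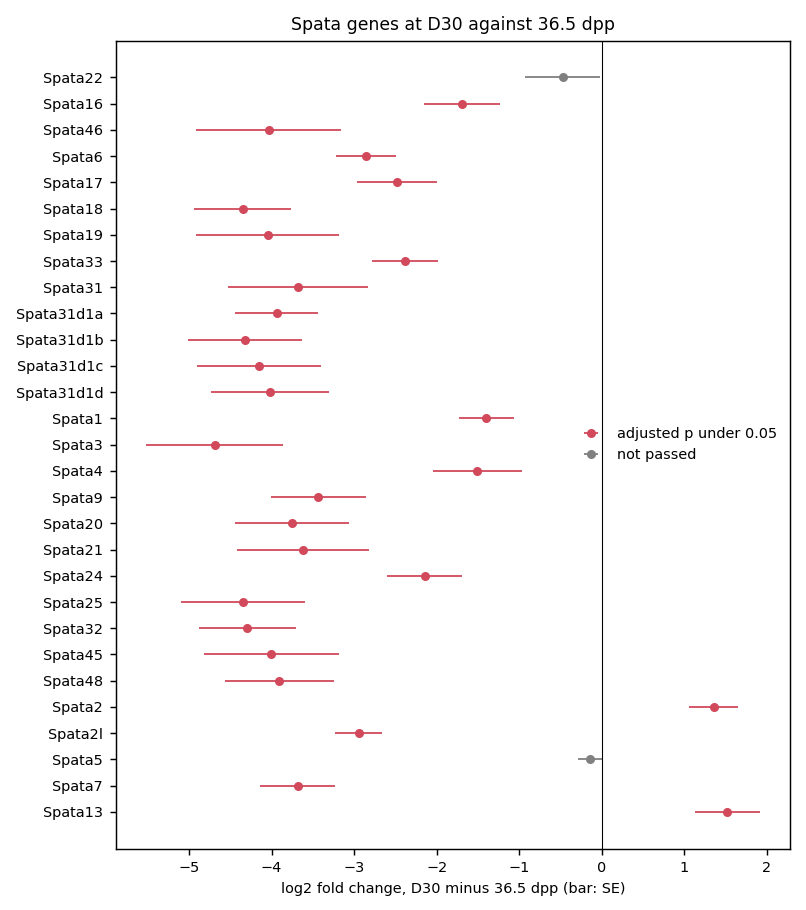
Log2 fold change of each member at D30 (4 libraries) against 36.5 dpp (2 libraries) under TMM scaling, with bars of 1 SE; members that passed an adjusted p under 0.05 are red and the others grey. Of the 29, 25 lie to the left of 0 in red, Spata2 and Spata13 to the right, and Spata5 and Spata22 near 0 in grey.

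Values by library follow in the order of the members' roles, in CPM, with the D30 libraries given as the 3 fresh ones and then the CSF one. Spata22 binds single-stranded DNA with MEIOB and is needed for meiotic recombination. Spata22 measured 2.02, 2.03 and 1.18 CPM at 10.5 dpp and 3.34, 4.68 and 3.68 at D4, then 13.6, 13.9 and 9.45 at 22.5 dpp and 9.38 and 6.18 at D16. Spata22 then stood at 7.28 and 2.52 at 36.5 dpp and, at D30, at 5.36, 7.63, 1.91 and 6.71. It is the only member whose mean was highest at 22.5 dpp in vivo and at D16 in culture, and the groups overlapped at D30. Its difference at D30 did not pass (log2 fold change -0.47 ± 0.45 (SE), adjusted p = 0.364), and its sign turned to 0.14 when scaled by library totals and to 0.44 without the first 36.5 dpp library. From 6.5 dpp to D4, Spata22 rose, with a log2 fold change of 2.15 ± 0.42 (SE), adjusted p = 0.00146, where 10.8% of all genes rose. With fresh libraries alone, which are fewer, the log2 fold change was 2.11 and did not pass (adjusted p = 0.153). Of its exonic 50-base windows 79.7% are shared with the overlapping gene model Gm49340 on the same strand, so its counts are uncertain. Of 12 genes of meiotic recombination listed beside it, 8 rose and 1 fell from 10.5 to 22.5 dpp. Of all genes, 33.6% rose and 27.9% fell. Against the age-matched testis, none of the 12 was higher and 2 were lower at D16, where 14.0% of all genes were higher and 11.8% lower. At D30, 1 was higher and 3 lower, where 32.4% of all genes were higher and 35.0% lower. Rpa1, a subunit of the single-strand binding complex RPA, was at 177.5 ± 36.55 CPM at D16 (SD, n = 2) and 343.5 ± 54.7 at 22.5 dpp (n = 3), with a log2 fold change of -1.12 ± 0.22 (SE, adjusted p = 0.00197). At D30 its log2 fold change was -1.26 ± 0.20 (SE, adjusted p = 2.83e-05). Rpa2, another subunit, did not pass at D16 (log2 fold change 0.11 ± 0.22 (SE), adjusted p = 0.744). At D30 Rpa2 was higher (0.89 ± 0.22 (SE), adjusted p = 0.00153).

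The head genes are Spata16, a Golgi and proacrosomal protein lost in some men with round-headed sperm, and Spata46, a protein of the nuclear envelope under the acrosome. Spata16 measured 339, 171 and 348 CPM at 22.5 dpp and 168 and 66.5 at D16, and 329 and 359 at 36.5 dpp and 225, 209.6, 78.4 and 142 at D30. Its levels at 22.5 and 36.5 dpp overlapped, and its D16 and D30 libraries all lay below the age-matched ones. It passed at D30 (log2 fold change -1.69 ± 0.46 (SE), adjusted p = 0.00338) and just at D16 (-1.46 ± 0.53 (SE), adjusted p = 0.0493), where leaving out any of 16 single libraries, among them D4 and 10.5 dpp ones, ended the call, with adjusted p from 0.0526 to 0.388. Spata46 had the highest length-corrected level of the head genes, 313 CPM per kb of exon at 36.5 dpp. Spata46 measured 19.3, 4.23 and 22.6 CPM at 22.5 dpp and 21.5 and 0.218 at D16, then 292 and 191 at 36.5 dpp and 23.3, 28.1, 10.5 and 28.9 at D30. Of the D30 libraries 1 lay inside the 22.5 dpp range and 3 just above it, and the log2 fold change against 36.5 dpp was -4.04 ± 0.88 (SE), adjusted p = 0.000645. Of 9 acrosome and globozoospermia genes listed beside them, 8 rose from 10.5 to 22.5 dpp, where 33.6% of all genes rose. At D30, 7 were lower and 1 higher, where 35.0% of all genes were lower and 32.4% higher. Dpy19l2, which holds the acrosome to the nucleus, was at 143 ± 53.2 CPM at D30 (SD, n = 4) and 261 ± 2.6 at 36.5 dpp (n = 2), with a log2 fold change of -1.50 ± 0.36 (SE, adjusted p = 0.00132).

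**Figure D3:**
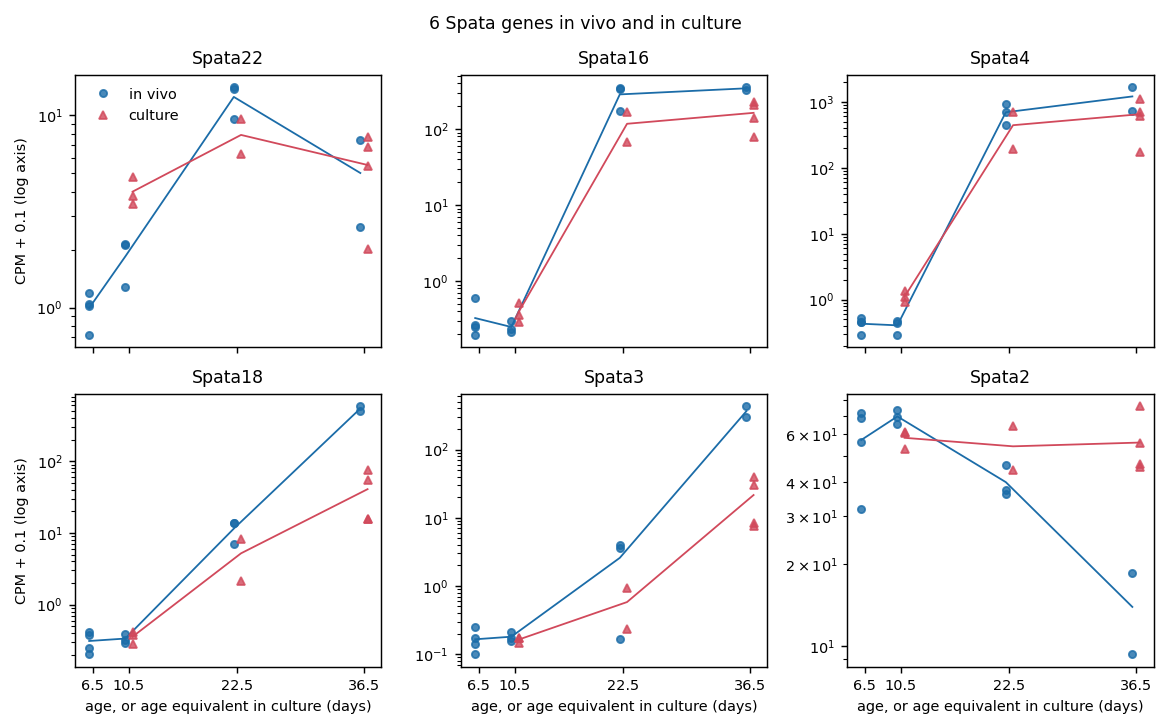
CPM + 0.1 on a log axis for 6 members against age in days, in vivo (blue circles) and in culture at the matching age (red triangles); each point is a library and lines join the group means. Spata16 and Spata4 are near their final level at 22.5 dpp, Spata18 and Spata3 climb mainly between 22.5 and 36.5 dpp with culture below, Spata22 peaks at 22.5 dpp, and Spata2 declines in vivo and stays level in culture.

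Among the tail and mitochondrial genes all 5 rose from 10.5 to 22.5 dpp, all 5 rose again to 36.5 dpp, and all 5 were lower at D30. The shares over all genes were 33.6%, 23.3% and 35.0%. The rise of Spata17 to 36.5 dpp did not pass without the second 22.5 dpp library (adjusted p = 0.0547). Its log2 fold change went from 1.71 to 1.27 without the first 36.5 dpp library. That fit left a single 36.5 dpp library, so only the fold is given and the rise is not shown to hold. Spata6 builds the connecting piece that joins head and tail, and is also transcribed in young testis. Spata6 measured 307, 189 and 246 CPM at 22.5 dpp and 207 and 90.9 at D16, and 1227 and 865 at 36.5 dpp and 283, 310.5, 109 and 182 at D30. Its D30 libraries fell inside or below the 22.5 dpp range apart from 1, at 310.5 CPM, and the log2 fold change against 36.5 dpp was -2.86 ± 0.36 (SE), adjusted p = 3.89e-06. Of 8 head to tail coupling genes listed beside it, 6 rose and 1 fell from 22.5 to 36.5 dpp. Of all genes, 23.3% rose and 27.5% fell. At D30, 7 of the 8 were lower, where 35.0% of all genes were. Odf1, an outer dense fibre protein, was at 105 ± 55.9 CPM at D30 (SD, n = 4) and 1598 ± 176 at 36.5 dpp (n = 2), a log2 fold change of -4.54 ± 0.87 (SE, adjusted p = 0.00022). Spata17, a protein with calmodulin-binding IQ motifs, was at 64, 34 and 56 CPM at 22.5 dpp and 39.7 and 9.07 at D16. Spata17 then stood at 154 and 87.3 at 36.5 dpp and, at D30, at 34.6, 45.2, 13.3 and 39.2, a log2 fold change of -2.48 ± 0.49 (SE), adjusted p = 0.000251.

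Spata18, whose product Mieap acts in mitochondrial quality control, had among the steepest late rises. Spata18 measured 13.6, 6.82 and 13.8 CPM at 22.5 dpp and 507 and 582 at 36.5 dpp. In culture it was at 8.17 and 2.03 at D16 and 75.8, 55.6, 15.8 and 15.8 at D30. Every D30 library exceeded the 22.5 dpp range while staying far below 36.5 dpp, with a log2 fold change of -4.35 ± 0.59 (SE), adjusted p = 7.46e-06. Spata19, a sperm mitochondrial protein needed for midpiece integrity and motility, had the highest length-corrected level of these 5, 372 CPM per kb at 36.5 dpp. Spata19 measured 21.7, 3.75 and 28.8 CPM at 22.5 dpp and 21.4 and 0.524 at D16, the first D16 library inside and the second below the 22.5 dpp range. Spata19 then stood at 633 and 452 at 36.5 dpp and, at D30, at 57.7, 76.6, 18.5 and 48, a log2 fold change of -4.05 ± 0.87 (SE), adjusted p = 0.000564. Spata33 ties calcineurin to the mitochondria of the sperm midpiece. Spata33 measured 166, 127 and 253 CPM at 22.5 dpp, 141 and 55.3 at D16, 381 and 414 at 36.5 dpp and 132, 166, 52.3 and 118 at D30. All 4 D30 libraries lay below 36.5 dpp, a log2 fold change of -2.38 ± 0.40 (SE), adjusted p = 6.01e-05. Of 9 mitochondrial sheath and sperm calcineurin genes listed beside them, 8 rose from 10.5 to 22.5 dpp, 5 rose from 22.5 to 36.5 dpp and 8 were lower at D30. The shares over all genes were 33.6%, 23.3% and 35.0%. Ppp3r2, the testis subunit of calcineurin, was at 431 ± 254 CPM at D30 (SD, n = 4) and 1238 ± 935 at 36.5 dpp (n = 2), with a log2 fold change of -2.14 ± 0.66 (SE, adjusted p = 0.00878).

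The Spata31 family comprises Spata31 on chromosome 13 and 4 copies on the same chromosome, Spata31d1a to Spata31d1d, of a family known from spermatids. Of the exonic 50-base windows of Spata31d1a 18.8% occur in Spata31d1b, and 24.9% in the reverse direction, so these 2 could trade reads. At 6.5 dpp Spata31, Spata31d1b and Spata31d1c were at the floor. All 5 rose from 22.5 to 36.5 dpp, where 23.3% of all genes rose, and all 5 were lower at D30, where 35.0% of all genes were. Spata31 was at 32, 5.11 and 23.1 CPM at 22.5 dpp and 16.9 and 0.24 at D16. Spata31 then stood at 134 and 214 at 36.5 dpp and, at D30, at 30.6, 24.7, 14.2 and 14.4, a log2 fold change of -3.68 ± 0.85 (SE), adjusted p = 0.00103, and its 53.8 CPM per kb at 36.5 dpp was the highest of the family. Spata31d1a was at 15.1, 10.6 and 12.8 CPM at 22.5 dpp and 3.82 and 3.65 at D16, and here the D16 libraries agreed and both lay below. It passed at D16 (log2 fold change -1.95 ± 0.58 (SE), adjusted p = 0.0214). The call was lost without the first or without the third 22.5 dpp library (adjusted p = 0.0696 and 0.0529). The log2 fold change was -2.01 without the first D16 library and -1.89 without the second. Either fit left a single D16 library, so only the fold is given and the call is not shown to hold. Spata31d1a then stood at 56.3 and 92 at 36.5 dpp and, at D30, at 14.3, 8.29, 4.21 and 2.81, a log2 fold change of -3.94 ± 0.50 (SE), adjusted p = 3.86e-06.

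Spata31d1b was nearly silent before elongation, at 1.56, 0.11 and 1.3 CPM at 22.5 dpp and 0.176 and 0.153 at D16. Spata31d1b then stood at 97.9 and 129.8 at 36.5 dpp and, at D30, at 18.9, 8.16, 5.34 and 2.41, a log2 fold change of -4.32 ± 0.69 (SE), adjusted p = 3.75e-05. Spata31d1c was at 0.502, 0.0219 and 0.221 CPM at 22.5 dpp and 0.151 and 0 at D16, and had 0 counts in all libraries of 10.5 dpp and D4. It reached 43.5 and 63 at 36.5 dpp and 9.44, 4.79, 2.72 and 1.38 at D30, a log2 fold change of -4.15 ± 0.75 (SE), adjusted p = 0.000256. Spata31d1d was at 8.74, 0.746 and 7.71 CPM at 22.5 dpp and 1.66 and 0.262 at D16, a difference that passed (log2 fold change -2.78 ± 0.89 (SE), adjusted p = 0.031) although the groups overlapped. Spata31d1d measured 63.4 and 118 at 36.5 dpp and 16.9, 7.63, 6.12 and 3.87 at D30, with a log2 fold change of -4.02 ± 0.71 (SE), adjusted p = 0.000108. In all 4 copies the first fresh D30 library was the highest and the CSF library the lowest of the 4.

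Of the 11 other testis genes, all 11 rose from 10.5 to 22.5 dpp and all 11 were lower at D30 than at 36.5 dpp. The shares over all genes were 33.6% and 35.0%. Spata4, which has a calponin homology domain, was the most abundant member per length, at 1144 CPM per kb at 36.5 dpp. Spata4 measured 0.382, 0.195 and 0.345 CPM at 10.5 dpp and 931, 450.5 and 706 at 22.5 dpp. At D16 it was at 693 and 192, at 36.5 dpp at 1686 and 732 and at D30 at 604, 1114, 175 and 704. The D30 libraries overlapped those of 36.5 dpp, which themselves differed more than 2-fold, and the log2 fold change of -1.51 ± 0.54 (SE), adjusted p = 0.0203 did not pass with library-total scaling (adjusted p = 0.133), with fresh libraries alone (adjusted p = 0.0505) or without the first 36.5 dpp library (adjusted p = 0.308). Spata1, which binds the intraflagellar transport protein IFT20, had a mean CPM at 22.5 dpp that was 85% of that at 36.5 dpp. Spata1 measured 230.1, 150.5 and 181 CPM at 22.5 dpp and 141 and 65.3 at D16. Spata1 then stood at 228 and 211 at 36.5 dpp and, at D30, at 158, 180.4, 62.1 and 111, a log2 fold change of -1.40 ± 0.34 (SE), adjusted p = 0.00149. Spata24 was at 77.2, 39.7 and 68.2 CPM at 22.5 dpp, 59.4 and 18.5 at D16, 192 and 155 at 36.5 dpp and 74.6, 84.9, 25.8 and 55.4 at D30. It shares 32.5% of its exonic windows with a second gene model of the same name in capitals, and its log2 fold change at D30 was -2.15 ± 0.45 (SE), adjusted p = 0.000503.

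Spata20, with a thioredoxin-like domain, and Spata21, with calcium-binding EF hands, were the next most abundant per length, at 486.5 and 372 CPM per kb at 36.5 dpp. Spata20 was at 133, 38.3 and 146 CPM at 22.5 dpp and 103 and 6.53 at D16. Spata20 then stood at 1212 and 1584 at 36.5 dpp and, at D30, at 270.4, 180.3, 93.6 and 93.2, a log2 fold change of -3.75 ± 0.69 (SE), adjusted p = 0.00015. Spata21 was unusual in young tissue, where it was at 5.64, 3.18, 6.79 and 3.81 CPM at 6.5 dpp and 0.743, 0.647 and 0.768 at D4. At 10.5 dpp it was between them, at 1.42 to 2.73 CPM, and neither 10.5 against 6.5 dpp nor D4 against 10.5 dpp passed. It fell over these 4 days of culture (log2 fold change -2.72 ± 0.85 (SE), adjusted p = 0.0305, where 10.1% of all genes fell), a call lost without any one of the D4 libraries or without the second CSF library, with adjusted p up to 0.1002, or with fresh libraries alone (adjusted p = 0.215). Spata21 measured 104, 22.9 and 107 CPM at 22.5 dpp and 66.6 and 1.66 at D16. Spata21 then stood at 847 and 1110 at 36.5 dpp and, at D30, at 212, 127, 71.3 and 78.1, a log2 fold change of -3.62 ± 0.80 (SE), adjusted p = 0.000712.

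Spata3, Spata25 and Spata32 were the near-silent genes of this group at 22.5 dpp. Spata3 was at 3.93, 0.0658 and 3.45 CPM at 22.5 dpp and 0.83 and 0.131 at D16, then 428 and 300.1 at 36.5 dpp and 39.4, 30.3, 7.56 and 8.36 at D30. Its log2 fold change at D30, -4.69 ± 0.83 (SE), adjusted p = 9.83e-05, was the largest in size among the 29. Spata25 was at 2.96, 0.175 and 2.94 CPM at 22.5 dpp and 1.28 and 0.153 at D16, then 86.6 and 45.9 at 36.5 dpp and 7.03, 6.11, 2.77 and 3.99 at D30. The log2 fold change at D30 was -4.35 ± 0.75 (SE), adjusted p = 8e-05; 21.5% of its exonic length overlaps Zswim1 on the opposite strand, and the strand setting of the counting was not given in the sources used here. Spata32, whose promoter is shown above, was at 0.951, 0.285 and 1.45 CPM at 22.5 dpp and 0.327 and 0.197 at D16. Spata32 then stood at 80.8 and 81.4 at 36.5 dpp and, at D30, at 11.8, 8.49, 2.47 and 2.39, a log2 fold change of -4.30 ± 0.59 (SE), adjusted p = 8.61e-06. All 4 D30 libraries exceeded the 22.5 dpp range of Spata3 and Spata32, and 3 of 4 exceeded that of Spata25.

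Spata9, Spata45 and Spata48 reached levels at 22.5 dpp that D30 libraries scarcely passed. Spata9 was at 11.6, 3.27 and 13.7 CPM at 22.5 dpp and 13.6 and 2.14 at D16, with 111 and 91.8 at 36.5 dpp and 15.9, 16.9, 6.52 and 18.5 at D30. Its log2 fold change at D30 was -3.43 ± 0.57 (SE), adjusted p = 6.14e-05. Spata45 was at 7.26, 1.89 and 13.4 CPM at 22.5 dpp and 8.47 and 0.24 at D16, with 54.1 and 109 at 36.5 dpp and 8.26, 10.7, 3.45 and 9.04 at D30, inside the 22.5 dpp range. The log2 fold change at D30 was -4.00 ± 0.81 (SE), adjusted p = 0.000356. Spata48, a protein of the sperm microtubule lumen, was at 8.42, 1.84 and 7.75 CPM at 22.5 dpp and 5.78 and 0.546 at D16. Spata48 then stood at 71 and 46.7 at 36.5 dpp and, at D30, at 6.83, 9.25, 2.54 and 5.4, a log2 fold change of -3.91 ± 0.66 (SE), adjusted p = 6.53e-05. Of its exonic length 12% overlaps Zpbp on the opposite strand.

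Of the 5 broadly expressed members, 2 were higher and 2 lower at D30. Spata2 bridges the deubiquitinase CYLD to the linear ubiquitin ligase, and its level in vivo was highest at 10.5 dpp. Spata2 measured 37.3, 46.2 and 36.1 CPM at 22.5 dpp and 44 and 64 at D16, and 9.27 and 18.4 at 36.5 dpp and 55.5, 45.2, 75.6 and 46.6 at D30. It fell from 22.5 to 36.5 dpp (log2 fold change -1.004 ± 0.30 (SE), adjusted p = 0.0107) but without the first 36.5 dpp library this did not pass (adjusted p = 0.187), and it was higher at D30 (log2 fold change 1.36 ± 0.30 (SE), adjusted p = 0.000663). Spata13 is a guanine nucleotide exchange factor. Spata13 measured 19.3, 32.3 and 17.2 CPM at 22.5 dpp and 22.5 and 40.8 at D16, then 5.11 and 9.62 at 36.5 dpp and 35.2, 23.3, 45.4 and 28.8 at D30. Its log2 fold change was 1.52 ± 0.39 (SE), adjusted p = 0.00254 at D30, and without the first 36.5 dpp library it was 1.11 and did not pass (adjusted p = 0.0611). Of 6 CYLD and linear ubiquitin genes listed beside Spata2, 2 were higher and 1 lower at D30. Of all genes, 32.4% were higher and 35.0% lower. Cyld was at 58.9 ± 4.3 CPM at D30 (SD, n = 4) and 15.95 ± 1.63 at 36.5 dpp (n = 2), a log2 fold change of 1.24 ± 0.20 (SE, adjusted p = 5.28e-05).

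Spata5, an ATPase of ribosome maturation, had the highest length-corrected level of the broadly expressed members, 67.8 CPM per kb at 10.5 dpp. Spata5 measured 201, 204 and 209 CPM at 22.5 dpp and 176 and 165 at D16, then 106 and 91.1 at 36.5 dpp and 140.1, 150.2, 116 and 149 at D30. Its CPM was higher in every D30 library, but the TMM-scaled log2 fold change was -0.14 ± 0.15 (SE), adjusted p = 0.423, with library totals 0.49 (adjusted p = 0.00497) and with RLE factors -0.40 (adjusted p = 0.0299), so its direction depends on the scaling. Of 5 ribosome maturation genes listed beside it, 1 was higher and 1 lower at D30, where 32.4% of all genes were higher and 35.0% lower. Spata7 belongs to the connecting cilium complex of photoreceptors with RPGRIP1, and here its level rose at both steps in vivo, as did most spermatid genes. Spata7 measured 44.1, 23.2 and 46.2 CPM at 22.5 dpp and 45.2 and 15.2 at D16, then 665 and 417 at 36.5 dpp and 77.5, 85.8, 32 and 63.1 at D30. The log2 fold change at D30 was -3.69 ± 0.45 (SE), adjusted p = 3.07e-06. Of 4 RPGR cilium genes listed beside it, all 4 were lower at D30, where 35.0% of all genes were. Among them, Rpgrip1 was at 119 ± 46.7 CPM (SD, n = 4) against 291 ± 129 (n = 2), a log2 fold change of -1.92 ± 0.36 (SE, adjusted p = 0.000173). Spata2l, a paralogue of Spata2, was low in every group and rose from 22.5 to 36.5 dpp. Spata2l measured 7.21, 4.21 and 6.42 CPM at 22.5 dpp and 4.6 and 2.19 at D16 (log2 fold change -0.98 ± 0.32 (SE), adjusted p = 0.0338), with overlapping groups. Spata2l then stood at 17.9 and 25.4 at 36.5 dpp and, at D30, at 5.31, 4.41, 3.93 and 3.82, with no overlap and the smallest adjusted p of the 29 (log2 fold change -2.95 ± 0.28 (SE), adjusted p = 2.59e-07). Of its exonic length 11.6% overlaps Cdk10 on the opposite strand.

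The 2 libraries of D16 differed from each other for most Spata genes. The first D16 library lay inside the 22.5 dpp range for 24 of 29 members and below it for 5. The second lay below that range for 25 members, inside it for 2 and above it for 2, Spata2 and Spata13. Shares of all genes for each library alone are not given, so whether these counts are particular to the members is not shown. Both D16 libraries lay below all 3 of 22.5 dpp for 5 members, as was so for 21.5% of all genes, and above them for none, where 29.2% of all genes did. For Spata46 the first D16 library had 21.5 CPM and the second 0.218, for Spata20 103 and 6.53, and for Spata21 66.6 and 1.66. Without the second D16 library no member was called against 22.5 dpp, and without the first 18 were. Without the second 22.5 dpp library, 11 were called, without either of the other two none was, and without the third fresh D30 library 7 were. Shares of all genes in such refits, here and below, are not given, so these counts are not read as a result about the members.

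**Figure D4:**
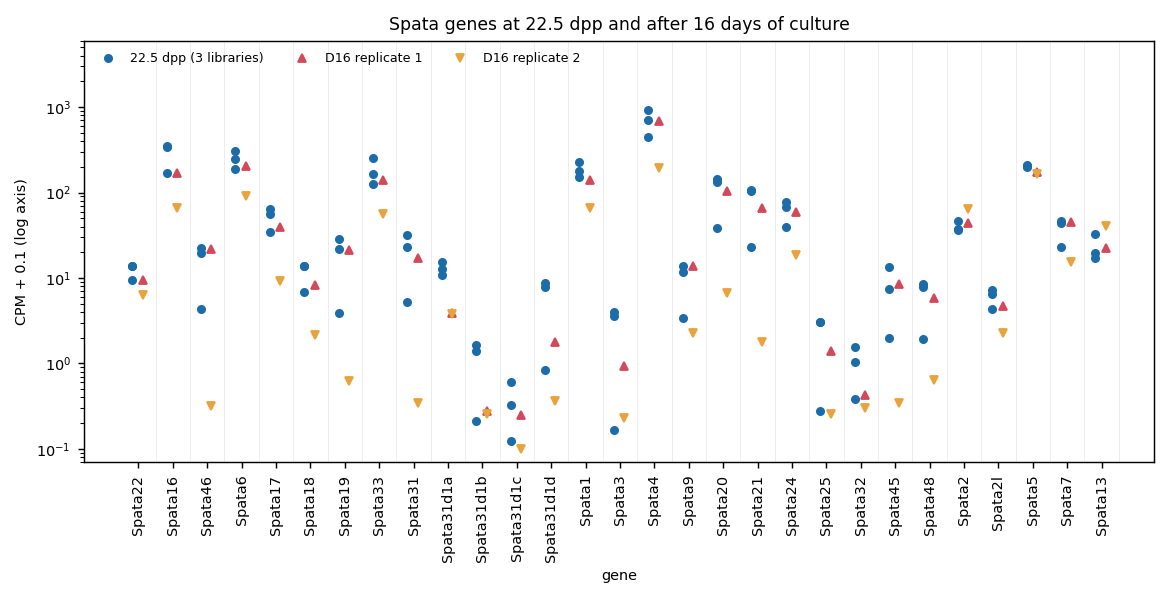
CPM + 0.1 on a log axis for each member in the 3 libraries of 22.5 dpp (blue circles), the first D16 library (red) and the second D16 library (yellow). The red points lie inside the blue range for 24 of 29 members, while the yellow points lie below it for 25. The shares over all genes are not given.

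Within culture, more Spata genes passed the test from D4 to D16 than from D16 to D30, and the steps were not tested against each other. From D4 to D16, 17 of 29 members rose and none fell, where 18.4% of all genes rose and 5.48% fell, with a median log2 fold change of 3.41 (3.15 with the 6 members at the floor at D4 set at their lower bounds) against 0.03 for all genes. Spata4 rose from 1.01 ± 0.209 CPM (SD, n = 3) to 443 ± 354 CPM (SD, n = 2), and Spata16 from 0.29 ± 0.116 CPM (SD, n = 3) to 117 ± 71.9 CPM (SD, n = 2). Spata45, at the floor at D4, was at least 70.6-fold higher at D16 and Spata46 at least 176-fold (mean CPM over 3 counts per library). Both bounds rest on the first D16 library, since the second had 0.24 CPM of Spata45 and 0.218 CPM of Spata46, and without the first neither call held (adjusted p = 0.411 and 0.370). Without the first D16 library 9 members rose. From D16 to D30, 5 members rose and none fell, where 1.46% of all genes rose and 0.332% fell: Spata3, Spata18, Spata31d1b, Spata31d1c and Spata32. Of these Spata32 had a log2 fold change of 4.64 ± 0.82 (SE), adjusted p = 0.00657 and Spata18 of 3.04 ± 0.70 (SE), adjusted p = 0.0305. Without the second D16 library none was called, and without the first 15 were.

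The step from 22.5 to 36.5 dpp was compared with that from D16 to D30 as a difference of log2 fold changes. For 6 members the rise in culture was smaller by more than the error, where 8.63% of all genes had a lower step in culture and 11.5% a higher one. Spata7 rose by 4.32 ± 0.52 (SE) in vivo, while its value in culture was 1.13 ± 0.49 (SE), a difference of -3.19 ± 0.66 (SE), adjusted p = 0.00332. Spata18 rose by 6.06 ± 0.70 (SE) in vivo and by 3.04 ± 0.70 (SE) in culture, a difference of -3.02 ± 0.84 (SE), adjusted p = 0.019. Spata9 had a difference of -2.98 ± 0.84 (SE), adjusted p = 0.0203, and Spata48 of -2.80 ± 0.96 (SE), adjusted p = 0.0476. The call of Spata48 was lost with library totals (adjusted p = 0.0566), without the count filter (0.0505), with fresh libraries alone (0.0817), with a replicate block (0.0953) and without most single libraries, and its difference was -0.23 without the first D16 library. Spata2l differed by -1.97 ± 0.42 (SE), adjusted p = 0.00419, and Spata6 by -1.96 ± 0.53 (SE), adjusted p = 0.0164. For Spata3, Spata31d1b, Spata31d1c and Spata32 the step in culture was 4.64 to 6.00 on the log2 scale against 7.002 to 8.25 in vivo, and the difference did not pass. With library totals 8 members were called, 3 of them with the larger step in culture. Without the first D16 library none of the 6 was called, and without the second 17 members were, and without the first 36.5 dpp library 3 were. The earlier step, 10.5 to 22.5 dpp against D4 to D16, differed for no member (9.61% of all genes), with 6 members at an unadjusted p under 0.05, 4 called by DESeq2 and 10 without the first D16 library.

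**Figure D5:**
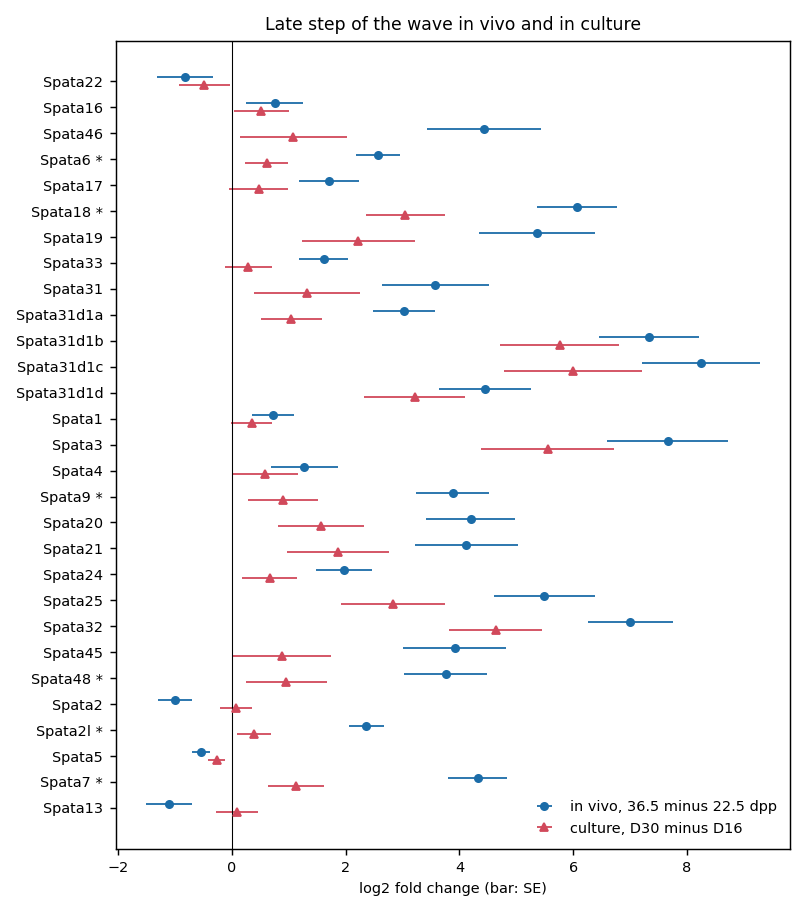
Log2 fold change of each member from 22.5 to 36.5 dpp in vivo (blue circles) and from D16 to D30 in culture (red triangles), with bars of 1 SE; an asterisk marks the 6 members whose 2 steps differed at an adjusted p under 0.05. The red value lies to the left of the blue one for 25 members and to its right for Spata2, Spata5, Spata13 and Spata22.

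Freezing was tested with all stages in 1 model, from 3 CSF libraries of uncultured 6.5 dpp tissue and 1 of D30 explants. No member passed, nor did any gene tested (0.0% of 19255, with 1261 at an unadjusted p under 0.05, 4 of them members). DESeq2 also called 0 members. The single D30 library of CSF tissue lay inside the range of the 3 fresh ones for 20 of 29 members, below it for 7 and above it for 2. Spata31d1d was at 3.87 CPM in it against 6.12 to 16.9 in the fresh ones, and Spata4 at 704 against 175 to 1114. The fresh 6.5 dpp library lay inside the range of the 3 CSF libraries of that age for 20 members, above it for 8 and below it for 1. Each age had 1 library on one side, which limits what could be detected.

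Marker genes of testis cell types, none of them at 0 in every library of any group, moved beside these results. Of all genes, 14.0% were higher and 11.8% lower at D16 than at 22.5 dpp. At D30 against 36.5 dpp, 32.4% were higher and 35.0% lower. At 22.5 dpp the summed level of 6 spermatocyte markers was 4665 to 6485 CPM and at D16 1974 to 4528, and 2 of the 6 were lower at D16. Of 6 Sertoli cell markers 5 were higher and 1 lower at D16 (summed 4954 to 6891 CPM against 1587 to 2745), and all 5 Leydig cell markers were lower (213 to 238 against 835 to 933). Of the spermatogonial markers 2 of 7 and of the peritubular ones 2 of 4 were higher at D16, 1 of 5 macrophage markers was lower, and none of the round or elongating spermatid markers passed. Of the 6 round spermatid markers all 6 were lower at D30, at 111 to 274 CPM against 1133 to 1221 at 36.5 dpp. Of the 6 elongating spermatid markers all 6 were lower, at 469 to 2141 CPM against 19890 to 25280. The second D16 library had 37.9 CPM of the round spermatid markers against 189 in the first, and the third fresh D30 library had 1385 CPM of the spermatocyte markers against 3540 to 4513 in the other 3. Of the Sertoli cell markers 5 were higher at D30 (5313 to 9029 CPM against 664 to 880), of 4 peritubular markers all 4 were higher (940 to 1519 against 137 to 237), and of 7 spermatogonial markers 4 were higher (469 to 665 against 119 to 129). Of 5 macrophage markers 4 were higher (132 to 189 against 48.7 to 59.4). Of 5 Leydig cell markers all 5 were lower, at 317 to 571 CPM against 1549 to 1925. The part of this cell composition in the Spata differences was not tested.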

How the data were processed

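Whole testes and pooled explants of CD-1 mice were sequenced as poly(A) RNA (TruSeq stranded, single-end 50 bases). The authors demultiplexed with bcl2fastq 2.17.1.14, aligned to GRCm38 with STAR 2.7.3a and counted reads per gene with HTSeq 0.12.4; the deposited values are raw counts without normalization. Multi-mapped reads and strand can affect paralogues and antisense genes, and the strand setting was not given in the sources used here. Of 27466 genes, 27373 identifiers matched RefSeq GRCm38.p6. The 21 libraries used held 28351546 to 69029328 counts; counting intervals cover counting error only.

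Members and lists were chosen with earlier results of these data known. Members were taken by symbol. Named with values in every age-matched library are members called at D16, at D30 or in a difference of steps, and the highest member per role; of each list at most 4 genes could be named. One 6.5 dpp library, whose members resembled D16 and 22.5 dpp, was left out (alternative: kept), and of 2 identical columns 1 was used.

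Counts were tested with edgeR 4.0.16 (R 4.3.3; filterByExpr, TMM factors, quasi-likelihood F test, 1 fit over 7 groups, Benjamini-Hochberg over 19255 genes, adjusted p under 0.05). Freezing was a term added to the groups. Differences of steps were contrasts of the same fit. Alternatives were RLE or library-total scaling, no count filter, at least 1 CPM in 2 libraries, DESeq2 1.42.0, fresh libraries alone, the stricter threshold, a replicate block and leaving out each library. The 7 groups share replicate numbers. Of 64 same-number pairs of libraries, 16 had deviations from their group means correlated above 0.1 (r from -0.527 to 0.661). Pairs with different numbers were not set beside them, so whether the numbers pair the samples was not tested. On simulated counts for D30 against 36.5 dpp (18779 genes, 200 changed 4-fold), 138 of the 200 (69%) were called and 10 unchanged genes were. In the measured counts, 32.4% of all genes were higher and 35.0% lower in that comparison. How calling behaves with so many genes changed was not tested.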

Additional observations from a re-analysis of the deposited data

Results flagged for a closer look

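The step from D16 to D30 was smaller than that from 22.5 to 36.5 dpp for 6 Spata genes by the test of the difference itself (edgeR). The differences of log2 fold change, culture minus in vivo, were -1.96 for Spata6, -3.02 for Spata18, -2.98 for Spata9, -2.80 for Spata48, -1.97 for Spata2l and -3.19 for Spata7. The 2 D16 libraries on which these rest differed from each other, and without the first of them no member was called.

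In the fresh 6.5 dpp library left out of the comparisons, 25 of the 29 members lay above the other libraries of that age. Its members' levels followed those of the first D16 library with a Spearman correlation of 0.986 across genes, those of the first 22.5 dpp library with 0.973, and those of the fresh 6.5 dpp library that was used with 0.909. Genes are not independent replicates, and the origin of the pattern was not tested.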

How the results depend on the processing

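The counts of called Spata genes were stable for D30 against 36.5 dpp (27, and 20 to 28 over all alternatives) and least stable where D16 enters. At D16 against 22.5 dpp the count of 4 became 7 with RLE factors, 2 with library totals, 9 with DESeq2, 0 with the left-out 6.5 dpp library and 0 under the stricter threshold, and leaving out single libraries gave 0 to 18. From D16 to D30 the count of 5 became 0 with the left-out library and 0 under the stricter threshold, with 0 to 15 on leaving out single libraries. For the difference of late steps the count of 6 became 2 with the left-out library and 0 under the stricter threshold, with 0 to 17. For the difference of early steps the count of 0 became 4 with DESeq2, and 0 to 10 on leaving out single libraries. From D4 to D16 the count of 17 became 3 with the left-out library, and 9 to 19 on leaving out single libraries. From 6.5 dpp to D4 the count of 2 became 1 with the left-out library, 0 with fresh libraries alone, 0 under the stricter threshold and 1 to 4 on leaving out single libraries. At D4 against 10.5 dpp the count of 0 became 1 with DESeq2, and 0 to 1 on leaving out single libraries. From 22.5 to 36.5 dpp the count of 25 became 17 with the left-out library and 15 under the stricter threshold. Shares of all genes under these alternatives are not given, and the cause was not tested.

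At D30 against 36.5 dpp, Spata22 (-0.47) turned to 0.14 and Spata5 (-0.14) to 0.49 when scaled by library totals, and leaving out single libraries moved Spata22 between -1.05 and 0.44. With a replicate block, the difference of early steps gained 1 member, and from 6.5 dpp to D4 the count went from 2 to 3. The block also ended the calls of Spata16 at D16 against 22.5 dpp (adjusted p = 0.0576) and of Spata48 in the difference of late steps (adjusted p = 0.0953). Whether the shared numbers pair the samples was not tested. Of 3277 values of single genes under an alternative, 3135 kept direction and side of the threshold. These values cover 113 results, nearly all of them called in the main fit. Results not called there that passed under an alternative, such as Spata4 at D4 with DESeq2, were mostly not counted. Many alternatives left out a library that was in neither group compared, so this share does not measure how firm the calls are. Depth limits members with few counts at young ages, 6 of which were at the floor at D4.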
